A study of Mus musculus with 25 samples.

Results

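The miR-99/100 and miR-125 families are 2 groups of small RNAs that each share a seed, the short stretch near the 5′ end of a mature miRNA with which it pairs to its targets. The 6 precursor hairpins that carry them were taken by name from the deposited count table. They are mmu-mir-99a, mmu-mir-99b and mmu-mir-100 of the miR-99/100 family, and mmu-mir-125a, mmu-mir-125b-1 and mmu-mir-125b-2 of the miR-125 family, 6 of the 1193 precursors listed. All 6 passed the filter on low counts and stood among the 425 precursors tested. The small RNA reads came from the brain hemispheres of male mice of the inbred strain C57BL/6, aged 2, 9, 15, 24 or 30 months. Each age had 5 libraries, 25 in all, each under an animal number of its own. The labels name no treatment, genotype or allele other than the strain. The comparisons ask how the levels of these miRNAs differ between ages of adult life.

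miR-99, miR-100 and miR-125 genes lie beside let-7 genes, and the neighbours are thought to be cut from common long transcripts. miR-125 is the vertebrate counterpart of lin-4, a worm miRNA that times development. It is abundant in neural tissue and, with let-7, represses LIN28, a protein that blocks let-7 processing. The miR-99/100 miRNAs are related to the miR-10 family and are known for repressing mTOR, a kinase of cell growth.

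The mature 5′ arms show what the members of a family share and where they differ. They are from RefSeq (GRCm38.p6), which held a mature entry for 6 of the 6 members, and the seed (bases 2 to 8) is in capitals.
miR-99a-5p: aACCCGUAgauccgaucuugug
miR-100-5p: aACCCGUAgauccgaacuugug
miR-99b-5p: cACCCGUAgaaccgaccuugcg
miR-125a-5p: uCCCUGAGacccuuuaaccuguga
miR-125b-5p: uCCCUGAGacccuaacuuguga
miR-351-5p: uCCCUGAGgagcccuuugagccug
Counting positions from 1 at the 5′ end, with the base of the first-named miRNA written first, miR-99a-5p and miR-100-5p differed by U16A alone, and miR-99a-5p and miR-99b-5p by A1C, U11A, U16C and U21C. A read cut short before that position would fit both miR-99a and miR-100, and how such reads were assigned is not given in the sources used here. miR-125a-5p and miR-125b-5p shared their first 13 bases. The seed of miR-99/100 was held by 3 of the 1738 mature sequences in the RefSeq table, namely these 3. That of miR-125 was held by 6 entries: miR-125a, miR-125b from each of its 2 genes, miR-351, miR-6394 and miR-6367. The precursors mir-6394 and mir-6367 had 0 reads in the 25 libraries.

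The 2 miR-125b genes give the same 5′ arm, so that only reads of their 3′ arms tell them apart. Those arms are printed to show how they differ, again with bases 2 to 8 in capitals.
miR-125b-1-3p: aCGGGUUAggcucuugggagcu
miR-125b-2-3p: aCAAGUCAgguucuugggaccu
They differed by G3A, G4A, U7C, C11U and G20C, with the base of miR-125b-1-3p written first. In the count table mir-125b-1 held 45.4% to 46.8% of the reads of both genes in each of the 25 libraries. The deposited rows are named for whole hairpins, so reads of the shared 5′ arm cannot be assigned to a gene, and the 2 rows (r = 0.97 over the 25 libraries) were not taken as independent measurements. The other copies in these clusters were divided in a like way, with let-7a-2 at 49.5% to 50.4% of the let-7a reads and let-7c-1 at 49.5% to 50.3% of the let-7c reads.

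The 6 genes lie in 3 clusters on the plus strand of 3 chromosomes (GRCm38, GENCODE M21). On chromosome 16, Mir99a (chr16:77598936-77599000) and Mir125b-2 (chr16:77646273-77646343) lie in introns of the noncoding host gene Mir99ahg, with let-7c-1 656 bases after Mir99a. On chromosome 9, Mir100 (chr9:41531425-41531504) and Mir125b-1 (chr9:41581926-41582002) lie in introns of the noncoding genes 3110039I08Rik and Gm49317, with let-7a-2 5211 bases after Mir100. Mir125b-1 is also exonic in 1 transcript, of the sense-intronic gene Gm28119. These clusters span 47408 and 50578 bases. On chromosome 17, Mir99b (chr17:17830188-17830257), let-7e and Mir125a (chr17:17830812-17830879) fit into 692 bases of Spaca6, a protein-coding gene. Mir99b is intronic there, and Mir125a is intronic in 2 transcripts and exonic in 1. The annotation has Gm11146 on the opposite strand of Mir99a and Gm48742 on that of Mir100, and the use of strand in counting is not given in the sources used here.

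Library totals ranged from 3.78 to 9.52 M reads (M for mega) with a median of 5.61 M, and every count of a member was at least 4131 reads. The unit of level is CPM, reads per mega-read of a library, after TMM scaling, which corrects library sizes for differences in composition. Of the libraries, 5 (1 of each age) came from sequencing lane 3, and these stood apart for these members. In lane 3, mir-99a averaged 849.5 ± 46.3 CPM (SD, n = 5) against 1037 ± 54.0 CPM (SD, n = 20) in the other lanes, and it was lower there at 5 of 5 ages. The lane 3 libraries were also lower at 5 of 5 ages for mir-99b (log2 difference -0.18) and mir-100 (-0.21). They were higher at 5 of 5 ages for mir-125a (0.14) and within 0.03 for both mir-125b rows. Since each age has 1 such library, results are given with and without lane 3. Markers of brain tissue were present in every library, with the summed level of the neuron list at 36782 CPM or more.

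Together the 6 precursors held 2.17% to 2.74% of a library's reads. Adapter ligation favours some sequences over others, so an order of levels between miRNAs is that of reads. mir-125a was the highest, at a mean of 11290 CPM over the 25 libraries and rank 22 of the 425. The mir-125b rows followed at 4280 CPM for mir-125b-2 and 3636 CPM for mir-125b-1, whose order cannot be read because they share a 5′ arm. mir-99b stood at 3132 CPM, mir-100 at 1278 CPM and mir-99a at 999.7 CPM, rank 105. The library ranges of mir-100 and mir-99a overlapped, and so did those of mir-99b and mir-125b-1. The let-7 neighbours had 6125 CPM for let-7c-1, 5751 CPM for let-7a-2 and 2258 CPM for let-7e.

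**Figure D1:**
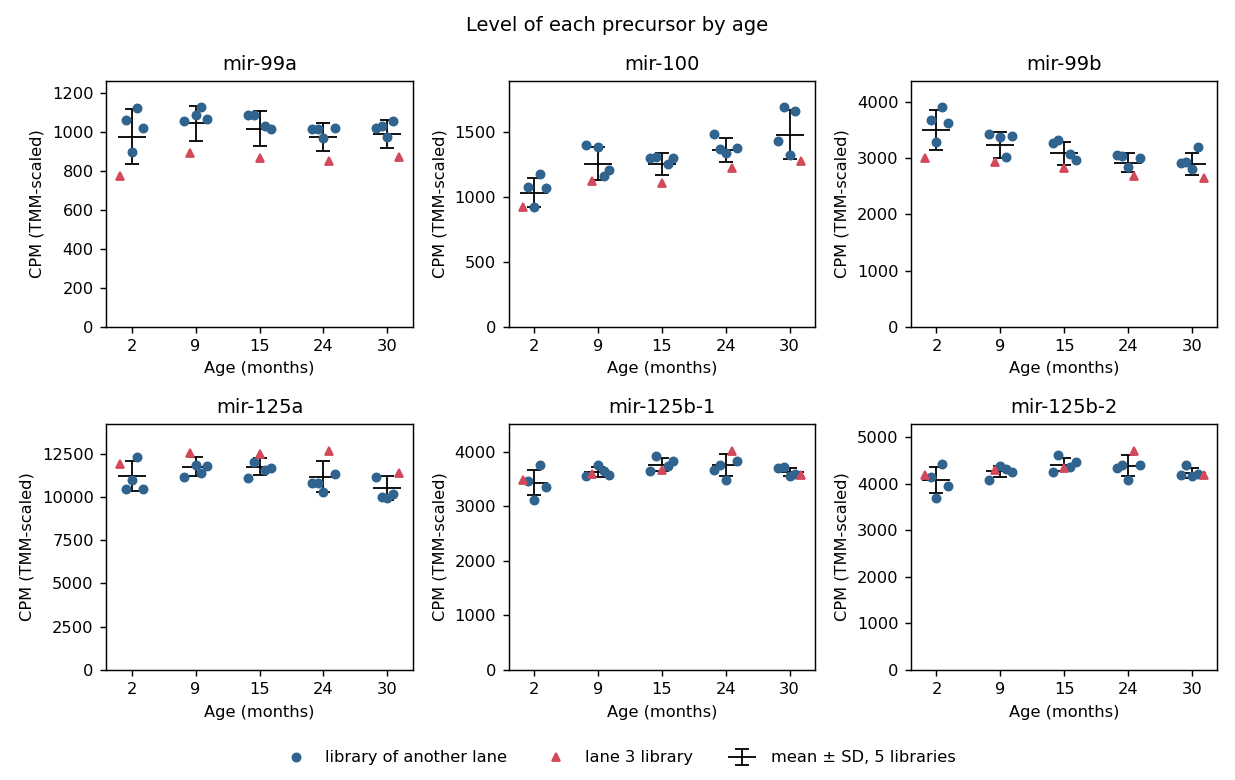
CPM (TMM-scaled, axis from 0) of the 6 precursors against age in months, with 1 point per library, triangles for the 5 libraries of lane 3, and the mean ± SD of 5 libraries in black. mir-100 goes from a mean of 1035 CPM at 2 months to 1481 CPM at 30 months with no overlap. mir-99b goes from 3503 to 2902 CPM with overlapping ranges, and the ranges of the other 4 overlap at these ages as well.

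Between 2 and 30 months mir-100 rose and mir-99b fell, while mir-99a and the 3 miR-125 precursors did not pass the test. These 2 of 6 members compare with 36.9% of all 425 precursors called (81 higher and 76 lower), so the share called is near the background. The test was edgeR's quasi-likelihood test across all tested precursors, with Benjamini-Hochberg adjustment and a threshold of 0.05. In bulk tissue, fewer cells of a type and less RNA per cell cannot be told apart.

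mir-100 gives a miRNA with the seed of miR-99. Its levels in replicates 1 to 5 were 925, 1077, 921, 1182 and 1072 CPM at 2 months, and 1437, 1694, 1328, 1665 and 1282 CPM at 30 months. Every 30-month library lay above the highest 2-month library. How many of all 425 precursors have no overlap between these ages was not counted, here or for mir-351 below. The log2 fold change was 0.52 ± 0.09 (SE, n = 5 per age, edgeR adjusted p = 5.04e-05), a rise of 43.1% with a 95% interval of 26.4% to 61.9%. It was 0.50 without lane 3 (adjusted p = 7.20e-05), and mir-100 was higher at 30 months in 4 of the 4 lanes with libraries of both ages, by 0.31 to 0.64 log2 units.

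The course of mir-100 ran upward over adult life. Its means were 1035 ± 111, 1257 ± 127, 1256 ± 86.3, 1362 ± 94.0 and 1481 ± 190 CPM at 2, 9, 15, 24 and 30 months (SD, n = 5). The libraries of neighbouring ages overlapped in every case. The step from 2 to 9 months was 0.28 ± 0.09 log2 units (SE, edgeR adjusted p = 0.0488). It made mir-100 the 1 of 6 members called there, against 7.76% of all precursors. That call is at the threshold: it was lost under 23 of 33 other settings, with adjusted p up to 0.157. The later steps were 0.00, 0.12 and 0.12 log2 units, and none passed the test. On a straight line mir-100 gained 0.19 ± 0.03 log2 units per 12 months (SE, n = 25, edgeR adjusted p = 7.44e-05).

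Several lists of markers of cells or tissues had members that rose between 2 and 30 months, and 2 of these lists are given here. Others are given under the other observations, among them microglia and leukocytes with 4 of 7 members higher and 1 lower. Over all 425 precursors tested, 81 were higher and 76 lower, or 36.9% called in either direction. The oligodendrocyte list (mir-338 and the 2 mir-219a copies, miRNAs of myelinating cells) rose in 3 of 3 members between 2 and 30 months. Its median log2 fold change was 0.71, beside 0.05 over all precursors tested, and its summed level went from 2487-2913 CPM to 3612-4554 CPM. The 2 mir-219a rows are copies and were not taken as independent. The miR-10 relatives and the hindbrain and spinal cord list rest on the same tested pair: mir-10a rose by 1.09 ± 0.17 (SE, edgeR adjusted p = 2.21e-05), mir-10b did not pass, and mir-196a-1 had 0 reads. The summed hindbrain list ranged from 573.9 to 948.0 CPM at 2 months and from 827.2 to 1462 CPM at 30 months. The part of these lists in the rise of mir-100 was not tested.

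mir-99b, from the compact cluster on chromosome 17, went down. It had 3003, 3685, 3287, 3911 and 3631 CPM at 2 months and 2922, 2928, 2809, 3195 and 2656 CPM at 30 months. The ages overlapped, with 4 of the 5 libraries at 30 months below the lowest at 2 months, which was from lane 3. The log2 fold change was -0.27 ± 0.07 (SE, n = 5 per age, edgeR adjusted p = 0.00278), or -17.2% with a 95% interval of -24.8% to -8.81%. Without lane 3 it was -0.32 (adjusted p = 1.08e-04), and mir-99b was lower at 30 months in 4 of 4 lanes, by 0.17 to 0.42 log2 units.

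The fall of mir-99b was spread over the ages. Its means were 3503 ± 358, 3235 ± 233, 3094 ± 205, 2927 ± 165 and 2902 ± 198 CPM (SD, n = 5). No step between neighbouring ages passed the test, and the ranges of neighbouring ages overlapped. The slope was -0.12 ± 0.02 log2 units per 12 months (SE, n = 25, edgeR adjusted p = 5.77e-04). The neuron list (miR-124, miR-128, miR-137 and miR-138 precursors) had 5 of 8 members lower and none higher between 2 and 30 months. They were mir-137 and 2 copies each of mir-128 and mir-138, and such copies were not taken as independent. Among them mir-128-1 changed by -0.37 ± 0.09 (SE, edgeR adjusted p = 0.00301). The 3 mir-124 precursors did not pass, at 0.10, 0.09 and 0.09. The list's median was -0.19, beside 76 of 425 lower and a median of 0.05 over all precursors. Its summed level was 45003-55434 CPM at 2 months and 39425-47966 CPM at 30 months, and its part in the fall of mir-99b was not tested.

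mir-99a, on chromosome 16, stayed near 1000 CPM. It had 771, 1061, 899, 1122 and 1021 CPM at 2 months and 1019, 1032, 971, 1056 and 869 CPM at 30 months, and the lowest library of both ages was from lane 3. The ranges overlapped, and the log2 fold change was 0.02 ± 0.09 (SE, edgeR adjusted p = 0.85). Its 95% interval ran from -10.5% to 15.1%, and its sign turned under each of the other 3 scalings of the libraries. Without lane 3 the log2 fold change was -0.04 (edgeR adjusted p = 0.587).

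mir-125a carries the largest share of the miR-125 reads. It had 11917, 10438, 10975, 12332 and 10466 CPM at 2 months and 11132, 10023, 9913, 10154 and 11416 CPM at 30 months. The ranges overlapped, with 3 of the 5 libraries at 30 months below the lowest at 2 months. The log2 fold change was -0.09 ± 0.06 (SE, edgeR adjusted p = 0.231), with a 95% interval of -13.8% to 2.00%. Without replicate 5 of 30 months, the lane 3 library, it was -0.16 and passed (edgeR adjusted p = 0.0463); without all of lane 3 it was -0.13 and did not (adjusted p = 0.0827). Its means were 11226 ± 861, 11747 ± 547, 11762 ± 510, 11186 ± 913 and 10528 ± 694 CPM from 2 to 30 months (SD, n = 5).

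The miR-125b rows had narrow ranges at 30 months. mir-125b-1 had 3480, 3460, 3116, 3747 and 3345 CPM at 2 months and 3691, 3722, 3558, 3579 and 3567 CPM at 30 months. mir-125b-2 had 4188, 4154, 3700, 4420 and 3956 CPM, then 4198, 4417, 4171, 4217 and 4192 CPM. In both rows the 30-month libraries lay within the range of the 2-month libraries. The log2 fold changes were 0.08 ± 0.04 for mir-125b-1 (SE, edgeR adjusted p = 0.145) and 0.05 ± 0.04 for mir-125b-2 (adjusted p = 0.352). Without lane 3 they were 0.06 and 0.04 (edgeR adjusted p = 0.33 and 0.54). With the rows summed, the log2 fold change of miR-125b was 0.07 ± 0.04 (SE, edgeR adjusted p = 0.239). Under upper-quartile scaling mir-125b-2 turned to -0.012 and the sum to -0.00083, and without replicate 3 of 2 months they were -0.011 and 0.0013. The 95% interval of mir-125b-1 ran from -0.534% to 12.2%, and without replicate 4 of 2 months its change was 0.10 and passed (edgeR adjusted p = 0.0492).

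The means of the miR-125b rows were highest at 15 months. Those of mir-125b-1 were 3429 ± 229, 3623 ± 86.4, 3758 ± 117, 3748 ± 201 and 3623 ± 77.2 CPM (SD, n = 5), and those of mir-125b-2 were 4083 ± 270, 4269 ± 115, 4416 ± 142, 4395 ± 228 and 4239 ± 101 CPM. The departure from a straight line did not pass for either row (edgeR adjusted p = 0.270 and 0.334).

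Over the other comparisons the same pattern of few calls held. No member was called between 9 and 15 months, where 0% of all precursors were, between 15 and 24 months (0.235%), or between 24 and 30 months (8.71%), by edgeR or by DESeq2. In those 3 comparisons 0 of 6 members had an unadjusted p under 0.05, against 27, 46 and 95 of the 425. For any difference among the 5 ages 2 of 6 members were called, mir-100 (edgeR adjusted p = 8.51e-04) and mir-99b (0.0111), against 32.7% of all. The slope on age called the same pair, against 35.5% of all. Without replicate 2 of 2 months it also called mir-125a, at -0.07 log2 units per 12 months (edgeR adjusted p = 0.0307) against -0.04 with all libraries. The departure from the slope called 0 of 6 members by edgeR and by DESeq2, against 7.06% of all by edgeR. At an unadjusted edgeR p under 0.05 there were 0 of 6 members, against 86 of the 425.

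**Figure D2:**
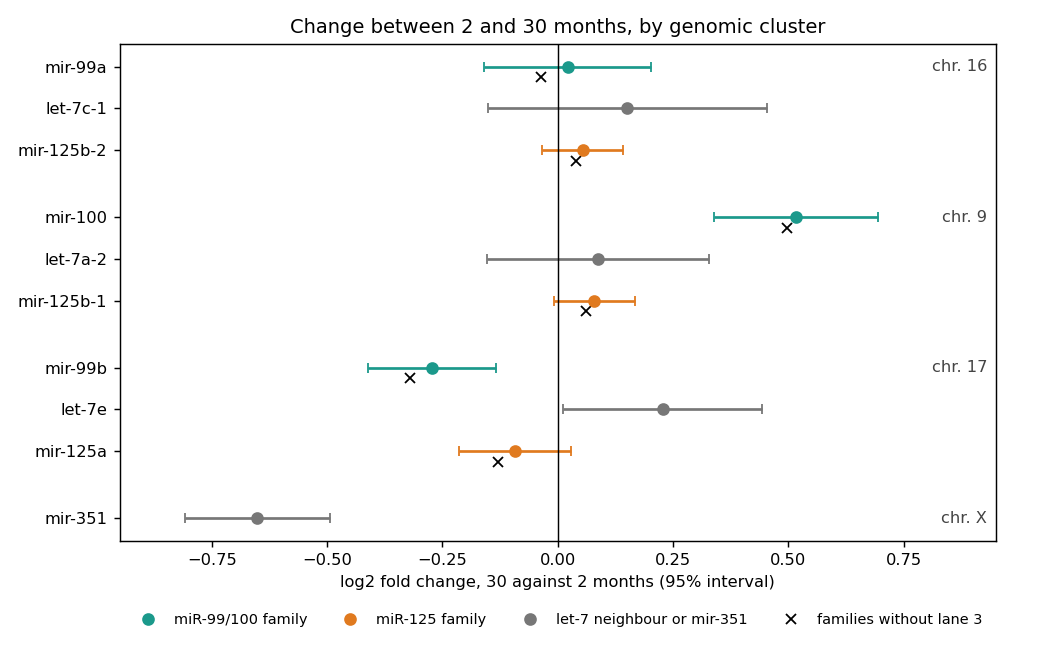
The log2 fold change from 2 to 30 months, with its 95% interval, for the 6 members (green and orange), their let-7 neighbours and mir-351 (grey), grouped by chromosome; crosses give the members' values without lane 3. Among the members the intervals of mir-100 (0.52) and mir-99b (-0.27) leave out 0, and their miR-125 neighbours mir-125b-1 (0.08) and mir-125a (-0.09) have intervals that hold 0.

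Whether relatives changed differently was tested with ratios inside each library, which do not depend on the scaling between libraries. There were 14 ratios, each with a two-sided exact permutation test over all divisions of 10 libraries, adjusted over the 14, and 4 passed. With 5 libraries an age the smallest p that this test can give is 0.00794, and those 4 ratios reached it. Their adjusted p of 0.0278 rests on 4 of the 14 being tied at that p, and a lone ratio at it would not have passed. The 4 ratios involve mir-100 or mir-99b in every case.

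The ratio of mir-99b to mir-100 moved most. It was 3.39 ± 0.122 at 2 months, 2.58 ± 0.152 at 9, 2.47 ± 0.113 at 15, 2.15 ± 0.0656 at 24 and 1.97 ± 0.155 at 30 months (SD, n = 5). Every library at 30 months lay below every library at 2 months, a change of -0.78 log2 units or -41.8% (exact permutation p = 0.00794, adjusted 0.0278). mir-99a to mir-100, which differ at a single base of the mature miRNA, went from 0.939 ± 0.0609 to 0.672 ± 0.0508 (SD, n = 5), or -0.48 log2 units, also with no overlap (exact permutation p = 0.00794, adjusted 0.0278). mir-99a to mir-99b went the other way, from 0.277 ± 0.0128 to 0.341 ± 0.0113 (SD, n = 5), or 0.30 log2 units, with no overlap (exact permutation p = 0.00794, adjusted 0.0278). On the log2 scale the ratio of mir-99a to mir-99b is fixed by the other ratios of this paragraph, so its pass is not a separate result.

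Among the ratios within a cluster, only that of mir-100 to mir-125b-1, on chromosome 9, passed. It went from 0.302 ± 0.0221 to 0.408 ± 0.0485 (SD, n = 5), a rise of 34.9% with no overlap (exact permutation p = 0.00794, adjusted 0.0278). Reads of the shared 5′ arm cannot be assigned to a miR-125b gene. The ratio therefore sets mir-100 against miR-125b of chromosomes 9 and 16, and not against its neighbour alone. The other mir-99 to mir-125 ratios did not pass: mir-99b to mir-125a changed by -0.18 log2 units (exact permutation p = 0.167, adjusted 0.233) and mir-99a to mir-125b-2 by -0.03 (0.802, adjusted 0.863). Against the let-7 neighbour, mir-100 to let-7a-2 gave 0.40 (exact permutation p = 0.0556, adjusted 0.0972) and mir-99b to let-7e -0.51 (0.0397, adjusted 0.0926). Neither passed, and at 2 months the lane 3 library had the highest let-7 level of all 3 neighbours. The let-7a-2 row divides its reads with another copy, so its ratio does not measure the neighbour alone. Within the miR-125 family, mir-125a to both mir-125b rows went from 1.496 ± 0.0951 to 1.34 ± 0.0985 (SD, n = 5; exact permutation p = 0.0476, adjusted 0.0952).

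Without lane 3 the 4 ratios kept their size, at -0.82 for mir-99b to mir-100, -0.53 for mir-99a to mir-100, 0.29 for mir-99a to mir-99b and 0.43 for mir-100 to mir-125b-1. With 4 libraries an age the exact permutation test cannot go below 0.0286, and the adjusted p was 0.08, so that 0 of 14 passed. After subtraction of lane means 7 passed, adding mir-100 to let-7a-2, mir-99b to mir-125a and mir-125a to mir-125b. That test permuted the centred values as if no lane means had been fitted, and not every lane held both ages. No conclusion is drawn from the added passes.

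**Figure D3:**
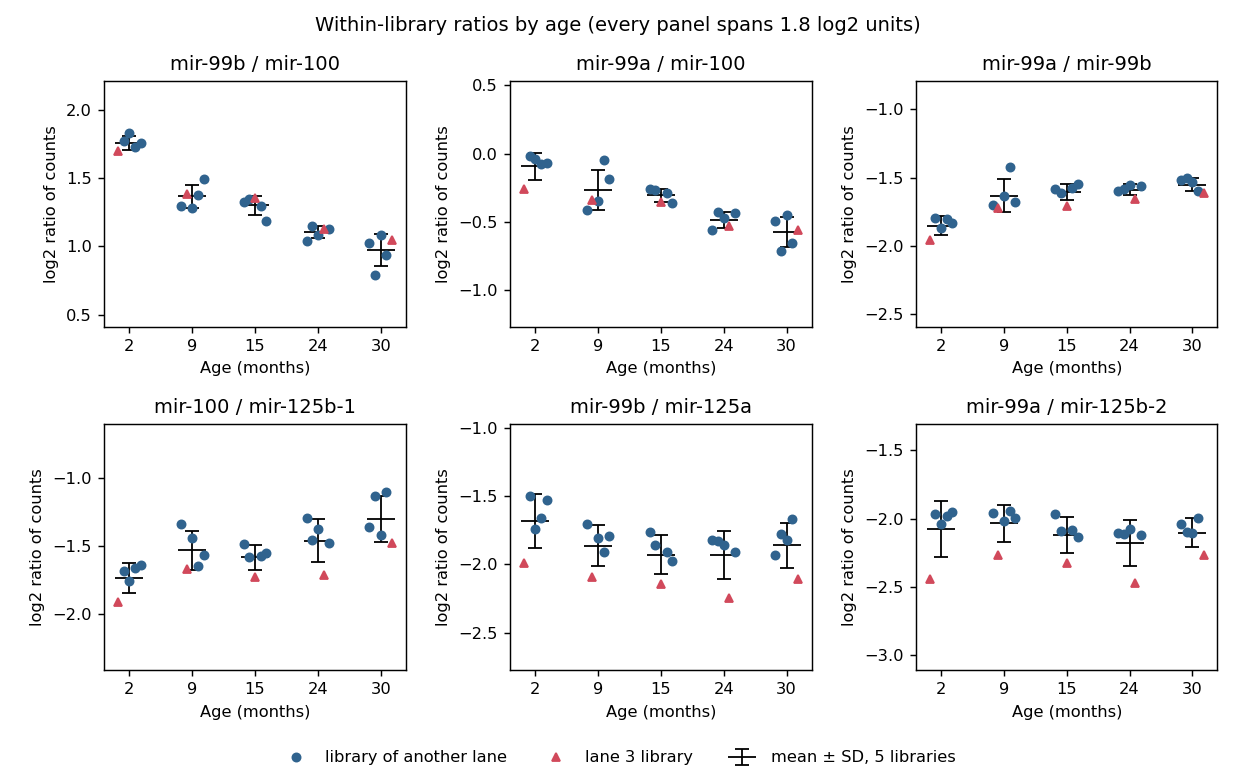
The log2 ratio of counts within each library against age in months for 6 pairs, with triangles for lane 3 and the mean ± SD of 5 libraries in black; each panel spans the same height. The ratio of mir-99b to mir-100 steps down from a mean of 1.76 at 2 months to 0.98 at 30 months, and in the panels of mir-99b to mir-125a and mir-99a to mir-125b-2 the lane 3 library is the lowest at every age.

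The pool of miR-99/100 reads changed in make-up while its total stayed within its spread. The 3 precursors summed to 5514 ± 604 CPM at 2 months and 5372 ± 437 CPM at 30 months (SD, n = 5). mir-100 made up 18.8% ± 0.614 of this pool at 2 months, 22.7% ± 1.09 at 9, 23.4% ± 0.728 at 15, 25.9% ± 0.589 at 24 and 27.5% ± 1.58 at 30 months (SD, n = 5). The part of mir-99b went from 63.6% ± 0.559 to 54.1% ± 1.37, and that of mir-99a from 17.6% ± 0.716 to 18.4% ± 0.525 (SD, n = 5). These are shares of hairpin reads, in which the arms are not told apart.

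The miR-125 pool moved less. Its 3 precursors summed to 18738 ± 1237 CPM at 2 months and 18390 ± 674 CPM at 30 months, and mir-125a made up 59.9% ± 1.54 and 57.2% ± 1.78 of it (SD, n = 5). The shares of mir-125a overlapped between these ages. mir-351, which has the miR-125 seed and lies on chromosome X, is a small addition to this pool at a mean of 141.6 CPM. It fell from 184 ± 22.8 to 117 ± 3.69 CPM (SD, n = 5) with no overlap, by 0.65 on the log2 scale (edgeR adjusted p = 1.00e-06), and it also fell from 2 to 9 months, by 0.34 (adjusted p = 0.00562).

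**Figure D4:**
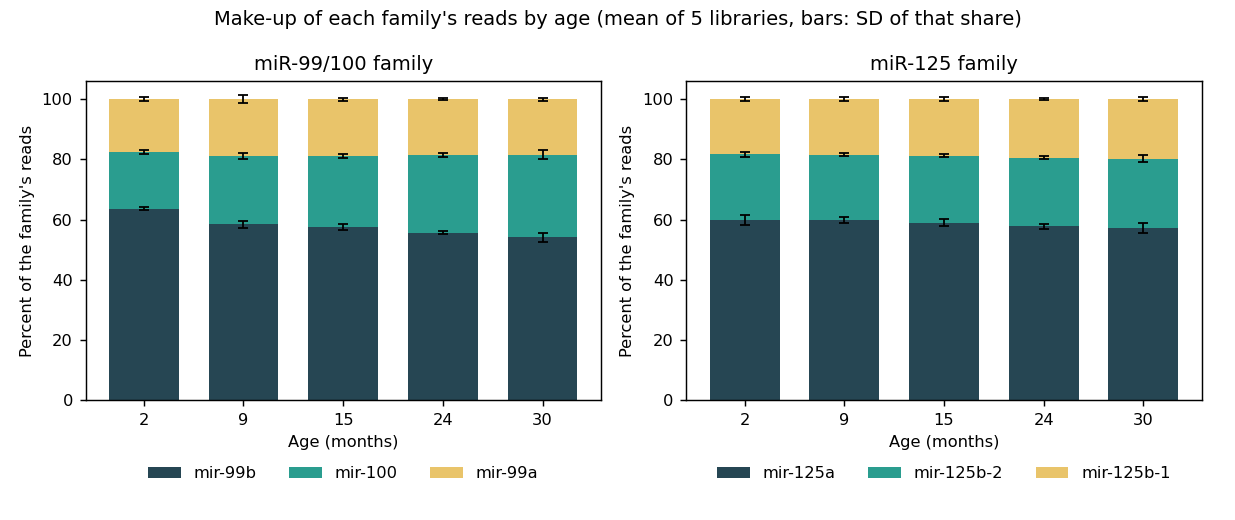
Stacked bars of the percent of each family's reads held by each precursor at each age in months, as means of 5 libraries, with black bars for the SD of each share. In the miR-99/100 family mir-100 widens from 18.8% to 27.5% and mir-99b narrows from 63.6% to 54.1%, and in the miR-125 family mir-125a goes from 59.9% to 57.2%.

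Genes cut from a common transcript could vary together between animals, and this was looked at in 9 pairs over the 25 libraries. Every pair on chromosomes 16 and 9 includes a mir-125b row, let-7c-1 or let-7a-2, which divide their reads with another copy. Those pairs do not measure the genes of a cluster alone and cannot decide this question. None of the 9 pairs passed a permutation test with adjustment over the 9. The strongest was mir-100 with mir-125b-1 (Pearson r 0.50, permutation p = 0.0117, adjusted 0.105; Spearman rho 0.38, permutation p = 0.0594, adjusted 0.535). Without the 2 libraries farthest from the median of mir-100 its r was 0.24. mir-99a with mir-125b-2 had an r of 0.15 (permutation p = 0.474, adjusted 0.908; Spearman rho 0.17, permutation p = 0.406, adjusted 0.787). mir-99b with mir-125a had -0.04 (permutation p = 0.861, adjusted 0.926; Spearman rho -0.04, permutation p = 0.836, adjusted 0.836).

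These values depend on the lane. Without lane 3, over 20 libraries, r was 0.62 for mir-99a with mir-125b-2 and 0.58 for mir-100 with mir-125b-1 (permutation test, adjusted p = 0.0363 for each). Over residuals from the age and lane means, 5 of 9 pairs passed the permutation test: 0.60, 0.48 and 0.61 for the 3 pairs of a miR-99/100 gene with its miR-125 neighbour, and -0.62 for mir-99a with let-7c-1 and -0.68 for mir-99b with let-7e. That test shuffled the residuals as if no means had been fitted, which makes its p too small. No conclusion is drawn from these passes. All the libraries share lane and depth effects, and a CPM is a share of a fixed sum.

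The precursors whose levels were most like each member's over the 25 libraries were ranked by Pearson r of log2(CPM + 0.5), among 316 others with a mean of at least 10 CPM, as a description. For mir-100 they were mir-10a (0.89), mir-338 (0.86) and mir-3065 (0.85), of which the last pair come from opposite strands of 1 locus. After subtraction of lane means these were 0.92, 0.85 and 0.83. For mir-99b they were mir-181c (0.80), mir-670 (0.80) and mir-351 (0.78), and 0.71, 0.80 and 0.90 after the subtraction. For mir-99a they were mir-532 (0.79), mir-551b (0.79) and mir-378d (0.77), and these went to 0.42, 0.25 and -0.44, so that likeness to mir-99a moved with the lane. The miR-125 members shared mir-23a as their nearest, at 0.77 for mir-125a, 0.71 for mir-125b-1 and 0.70 for mir-125b-2. The others were mir-495 (0.77) and mir-30b (0.74) for mir-125a, mir-29b-1 (0.67) and mir-34a (0.63) for mir-125b-1, and mir-23b (0.59) and mir-124-2 (0.58) for mir-125b-2.

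The let-7 neighbours did not pass between 2 and 30 months, at 0.15 ± 0.15 for let-7c-1, 0.09 ± 0.12 for let-7a-2 and 0.23 ± 0.10 for let-7e (SE, edgeR adjusted p = 0.450, 0.591 and 0.0871). The let-7c-1 and let-7a-2 rows each divide their reads with another copy and do not measure these genes alone. let-7e rose between 24 and 30 months by 0.38 ± 0.10 (SE, edgeR adjusted p = 0.0241), a step at which its neighbours mir-99b and mir-125a had -0.01 and -0.09 and did not pass. Of the 13 let-7 family precursors tested, 4 rose and none fell between 2 and 30 months, at a median of 0.16, beside 81 of 425 higher, 36.9% called in either direction and a median of 0.05 over all precursors. The 4 were let-7i (0.44 ± 0.09), let-7f-2 (0.38 ± 0.09), let-7f-1 (0.38 ± 0.09) and let-7d (0.16 ± 0.05, SE, edgeR adjusted p = 0.0219), and let-7k had 0 reads. The let-7f rows are copies and were not taken as independent. In the list of other timing miRNAs mir-351 fell and the 3 mir-9 precursors did not pass.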

How the data were processed

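The authors deposited whole-number read counts per miRNA precursor, per the file headers, with no division into arms; the library kit was TruSeq smallRNA, per the labels. SAMtools 1.3.1-9, Trimmomatic 0.36 and bcl2fastq 1.8.4 were used, per the submitters' processing notes. Not given in the sources used here are aligner, counter, build, strand and the handling of reads that match several loci. Table headers carry the sequencing lane, 1 of 6. Between replicates of an age, chi-square per degree of freedom was at least 12.5 over 50 pairs, so none was taken as a library deposited again.

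Counts were fitted with edgeR 4.0.16 in R 4.3.3 (filterByExpr, TMM factors 0.952 to 1.04, quasi-likelihood F tests, 1 mean per age, all 25 libraries). The 425 precursors kept made up 99.9856% or more of every library; 768 were not tested. CPM were computed from the deposited counts, ratios with 0.5 added to each count and correlations on log2(CPM + 0.5). SE is the log2 fold change divided by the square root of F. Permutation tests used Python 3.11.15 and SciPy 1.17.1, exact for ratios and with 100000 resamples for correlations; DESeq2 1.42.0 was an alternative. The statistics were tested on simulated data. PCR reads carry no molecular identifiers, so errors are the spread between libraries.

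Named precursors were the 6 members, their let-7 neighbours, all sharing a member's seed, the 3 most alike per member, and up to 4 per list past the threshold by smallest p. Members and lists were chosen with earlier results of these data known. The other lists held markers of astrocytes, microglia and leukocytes, erythroid, endothelial and mural, choroid plexus and ciliated, epithelial and sensory, and muscle and liver cells.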

Additional observations from a re-analysis of the deposited data

Results flagged for a closer look

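Among 78 groups of 5 libraries (50 of CPM and 28 of ratios), 12 had a highest or lowest library far from the rest by Dixon's criterion, and chance flags about 1 in 20 groups. Several of the 12 come from the same library and are not independent.

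Among the members, mir-100 had its lowest 15-month library at 1106 CPM, from lane 3, with the next at 1255 CPM. mir-125b-2 had its highest 30-month library at 4417 CPM, with the next at 4217 CPM. At 30 months the log2 ratio of mir-125b-1 to mir-125b-2 was highest at -0.19 in replicate 1, with the next at -0.23.

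Replicate 1 of 2 months, the lane 3 library of that age, was far from the other 4 in several measures. Its let-7c-1 was at 9179 CPM (next 5761), its let-7a-2 at 8072 CPM (next 5440) and its let-7e at 3012 CPM (next 2164). Its log2 ratios were the lowest for mir-99a to mir-125b-2 (-2.44, next -2.04), mir-99a to let-7c-1 (-3.57, next -2.50), mir-99b to let-7e (-0.00435, next 0.74) and mir-99a to mir-100 (-0.26, next -0.08). Without this library the ratio of mir-99b to let-7e changed by -0.67 between 2 and 30 months and passed the exact permutation test (adjusted p = 0.0278).

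Replicate 3 of 24 months, from lane 8, had the highest let-7c-1 of its age at 6634 CPM (next 5161) and the highest let-7e at 2322 CPM (next 1989).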

How the results depend on the processing

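mir-100 and mir-99b kept their direction and passed the test between 2 and 30 months in all 35 alternatives, at 0.43 to 0.56 (adjusted p 7.13e-07 to 0.00222) and -0.37 to -0.24 (2.58e-05 to 0.0105). The count of members called was 2 to 3. Leaving out 1 library gave 0.016 to 0.10 for mir-125b-1 (adjusted p over all alternatives 0.0492 to 0.903) and -0.16 to -0.069 for mir-125a (0.0463 to 0.413). Between 2 and 9 months the count was 0 instead of 1 under upper-quartile scaling, library totals and no filter, and 0 to 1 over the leave-outs, with 0 in 20 of 25. Any-age calls were 2 to 5, slope calls 2 to 3 (3 without replicate 2 of 2 months) and departures from the slope 0 to 2 over the leave-outs, the highest any-age and departure counts without replicate 4 of 2 months. Ratios called were 0 without lane 3 and 4 to 5 over the leave-outs. After lane centring 7 were called, by a test that does not allow for the fitted lane means. Cluster correlations passing were 2 without lane 3. For residuals from age and lane means 5 passed, by a permutation test whose p are too small there, and mir-99b with mir-125a had 0.61 against -0.04. The cause of these shifts was not tested.

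Among all precursors, the split of higher against lower calls was 81 to 76, and 50 to 91 under upper-quartile scaling; no scaling moved the median log2 fold change by more than 0.1. No paired analysis was possible because replicate numbers were given by deposition order and link no animals across ages; lane served as the block instead, as a covariate and within lanes. With 5 libraries an age, the intervals of the 4 members not called leave room for changes of up to 15.1%. Reads of identical mature sequences cannot be assigned to a locus.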

Other observations

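The remaining marker lists are given for 30 against 2 months, beside a median of 0.05 and 36.9% called over all precursors. Of 7 microglia and leukocyte miRNAs, 4 rose and 1 fell, with mir-146a at 0.99 ± 0.13 and mir-155 at 1.39 ± 0.26, both known from inflammation, and mir-150, of lymphocytes, at -0.50 ± 0.07 (SE, edgeR adjusted p = 1.37e-05). The others that rose, mir-142a and mir-142b (0.39 each), were not taken as independent. In that list mir-223 (0.14) and mir-342 (-0.11) did not pass. Of 5 astrocyte-associated miRNAs, 2 rose (mir-193a 0.39 ± 0.14, mir-27b 0.27 ± 0.10). Of 6 choroid plexus and ciliated-cell miRNAs, 3 rose (mir-449a 0.72 ± 0.17, mir-449c 0.61 ± 0.21 and mir-34c 0.27 ± 0.08). The choroid plexus miRNAs mir-204 (0.15) and mir-211 (0.36) did not pass, and neither did mir-34b (0.09). Of 5 muscle and liver miRNAs, 2 rose, which are copies of mir-133a and not independent (mir-133a-1 0.31 ± 0.08, mir-133a-2 0.25 ± 0.08). In that list mir-1a-1 (-0.50 ± 0.20), mir-1a-2 (-0.36 ± 0.26) and mir-122 (-0.31 ± 0.58) did not pass, and its median was -0.31. By edgeR's quasi-likelihood test none of 4 erythroid, 4 endothelial and mural or 8 epithelial and sensory miRNAs passed.

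In the oligodendrocyte list, mir-219a-1 rose by 1.58 ± 0.12 log2 units, mir-219a-2 by 0.71 ± 0.07 and mir-338 by 0.54 ± 0.08 (SE, edgeR adjusted p = 1.29e-09, 3.88e-08 and 1.11e-05).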
